A study of Homo sapiens with 4 samples.

Results

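The SP factors SP5, SP8, SP1, SP2, SP3 and SP4 were followed in H1 cells during hematopoietic differentiation, on day 2, in cultures left to secrete Wnt and in cultures treated with an inhibitor of Wnt secretion. The 6 genes were chosen by symbol among the 56595 symbols of the expression table, each symbol had a single row, and all 6 passed the filter on low values (a mean of at least 0.5 FPKM over the 4 libraries), as did 15957 genes in all. FPKM is the number of sequenced fragments of a gene scaled by transcript length and library size, so that levels of different genes can be set beside each other. H1 is an established human embryonic stem cell line. All 4 libraries came from H1 cells kept for 2 days in Custom mTeSR1 medium with activin A at 40 ng/ml and BMP4 at 50 ng/ml according to the labels, while the methods of the study give these concentrations the other way round. The 2 DMSO libraries came from cells without the inhibitor, and the 2 IWP2 libraries came from cells that also received IWP2 at a dose that the labels do not give. No undifferentiated library was analysed here, so each value compares differentiating cells with and without IWP2. Nothing in the labels says that the 2 libraries of a group came from separate cultures, and the p-values below then measure only the spread between these libraries, which may be technical.

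The SP genes encode zinc finger transcription factors that bind GC-rich promoter elements, first of all the GC box. SP1 to SP4 are made in most cell types, whereas SP5 to SP9 are each restricted to certain tissues and stages. SP5 and SP8 are known as genes switched on by Wnt/β-catenin signaling, in which β-catenin joins DNA-bound TCF/LEF factors, and in the early embryo they are expressed in the primitive streak and the tail bud. IWP2 inhibits Porcupine, the acyltransferase that every lipid-modified Wnt ligand needs before it can be secreted.

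The promoter sequences are shown because they differ between SP5, SP8 and the broadly expressed members. RefSeq start sites on GRCh38.p14 were found for all 6 members, and the windows ran from 250 bases before to 50 bases after each start. The TCF/LEF core was searched as CTTTGA and CTTTGT and the GC box as GGGCGG, on both strands. The 200 bases before the start site are printed 5′ to 3′ on the strand of the gene, and capitals mark these motifs, so that TCAAAG and ACAAAG are TCF/LEF cores and CCGCCC is a GC box on the other strand.
SP5, chr2:170715137-170715336, plus strand: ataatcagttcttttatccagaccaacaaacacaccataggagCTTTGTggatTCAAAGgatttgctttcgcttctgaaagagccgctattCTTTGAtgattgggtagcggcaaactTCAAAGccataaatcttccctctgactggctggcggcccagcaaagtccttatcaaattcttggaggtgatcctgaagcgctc
SP8, chr7:20786887-20787086, minus strand: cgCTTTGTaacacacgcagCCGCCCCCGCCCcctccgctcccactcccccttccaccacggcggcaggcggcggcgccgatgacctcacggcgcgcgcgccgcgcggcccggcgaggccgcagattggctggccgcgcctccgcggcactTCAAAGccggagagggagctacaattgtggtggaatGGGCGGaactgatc
SP1, chr12:53379976-53380175, plus strand: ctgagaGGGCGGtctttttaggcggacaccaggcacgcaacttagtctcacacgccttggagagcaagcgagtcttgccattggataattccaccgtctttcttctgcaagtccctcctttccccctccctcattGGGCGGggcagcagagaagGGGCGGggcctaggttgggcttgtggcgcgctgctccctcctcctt

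The SP5 window held 4 TCF/LEF cores, which began at positions -157, -147, -109 and -83 from the start site. Of 35116 promoter windows of this length, 26.2% held at least 1 such core and 0.11% held 4 or more. The SP8 window held 2 cores, at positions -198 and -50, a number that 5.33% of all windows reached or passed. No core was found in the windows of SP1, SP2 and SP4, and 1 was found in the windows of the 3 start sites listed for SP3. The GC box was present in all 6 genes. It was found 1 time in the SP5 window, at position 43 after the start site, 3 times in that of SP8, 2 times in that of SP2 and 4 times in that of SP4. The 2 windows of SP1 held 4 and 10 matches, and the 3 windows of SP3 held 2, 2 and 1. In all windows together, 45.0% held a GC box and 9.06% held 4 or more. The window of SP2 held 8 copies of the CCAAT box (searched as CCAAT), the site of the factor NF-Y. Of all windows, 34.6% held at least 1 and 0.99% held 4 or more, and 8 was the highest number found. These matches describe letters in a short window, and binding was not measured.

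**Figure D1:**
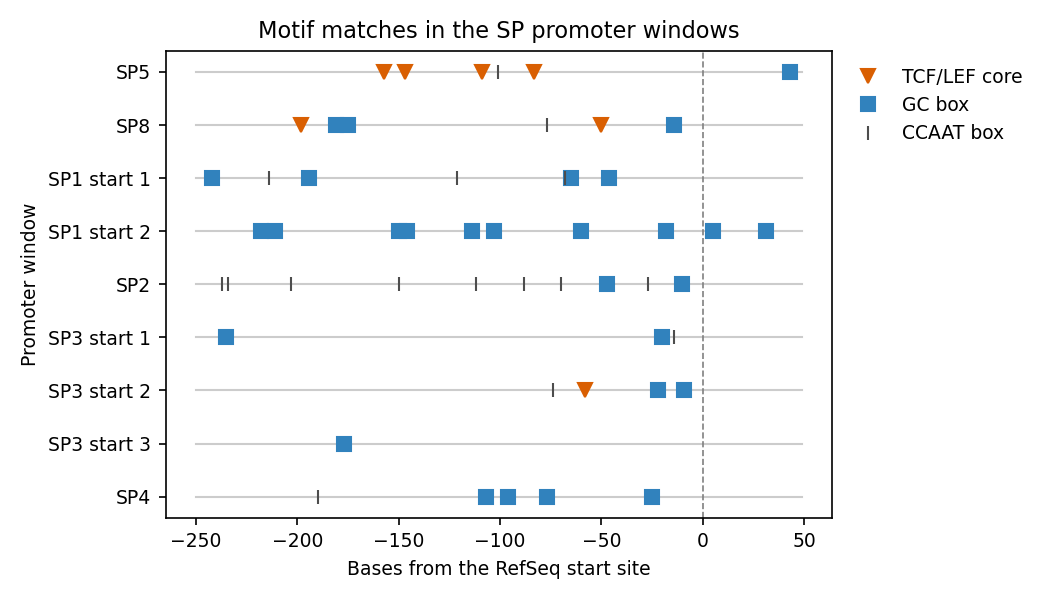
Positions of TCF/LEF cores (triangles), GC boxes (squares) and CCAAT boxes (ticks) in the promoter windows of the 6 members, in bases from the RefSeq start site (dashed line), with a row for each start site. SP5 carries 4 TCF/LEF cores and SP8 carries 2, while the windows of SP1, SP2 and SP4 carry none.

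The labelled state of the cells was checked first. All 7 mesoderm markers were lower with IWP2, with a summed level of 1107 to 1409 FPKM in DMSO and 150 to 172 FPKM in IWP2 libraries. Of 8 pluripotency markers, 3 were higher, 1 was lower and 4 did not pass the test (sum 1276 to 1452 FPKM in DMSO, 2533 to 2540 FPKM in IWP2). SOX2, with the largest log2 difference of the 8, stood at 0.174 to 0.193 FPKM in DMSO and at 35.6 to 36.1 FPKM in IWP2. POU5F1, the largest part of the sum, was at 750.7 and 571.4 FPKM in DMSO and at 1854.3 and 1843.6 FPKM in IWP2. TDGF1, the marker called lower, was at 202.8 and 221.2 FPKM in DMSO and at 103.5 and 98.6 FPKM in IWP2. Of 5 definitive endoderm markers 4 could be tested and 3 were lower. The sum was 1775 to 2158 FPKM in DMSO and 119 to 130 FPKM in IWP2. Most of the DMSO sum was CER1 (1611.6 and 2048.2 FPKM, against 38.6 and 34.2 FPKM with IWP2). SOX17, at 154.7 and 104.2 FPKM in DMSO and 79.7 and 94.9 FPKM with IWP2, did not pass the test (limma adjusted p = 0.166). The 7 blood and endothelial markers summed to 3.98 to 4.28 FPKM in DMSO and 1.92 to 2.51 FPKM in IWP2, with GATA1 at 0 in every library; TEK, the 1 gene of this list that could be tested, was lower. The 6 neural markers summed to 87.8 to 100.3 FPKM in DMSO and 126 to 137 FPKM in IWP2, nearly all of it from NES, which was called higher, with HES5 at 0 throughout. The 6 stromal markers summed to 184 to 195 FPKM in DMSO and 193 to 194 FPKM in IWP2, and of the 5 that could be tested LUM was lower, THY1 was higher and 3 did not pass the test. In bulk RNA, fewer cells that express a gene and less RNA per cell cannot be told apart, and the part of these shifts in the results below was not tested.

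Of the 6 members, SP5 and SP8 fell with IWP2 and the other 4 did not pass the test. SP5 and SP8 reached the filter on low values through the DMSO libraries alone, so that a fall was the only call open to them. Their means with IWP2 were 0.371 and 0.117 FPKM. Over all genes tested, 7.39% were called lower and 5.86% were called higher, 13.3% in all, and in 31.0% both IWP2 libraries lay below both DMSO libraries. The median difference over all genes was -0.014 on the log2 scale. Without 1 library the calls dropped to 431 lower and 300 higher (DMSO replicate 1 left out), 320 and 130 (DMSO replicate 2), 100 and 28 (IWP2 replicate 1) or 88 and 19 (IWP2 replicate 2), from 1180 and 935. With upper quartile scaling the balance turned to 1057 lower and 1085 higher, and with quantile normalization to 1059 and 1067.

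SP5 was the most abundant SP factor in DMSO libraries and was at a trace level with IWP2. SP5 (ENSG00000204335.3, chr2:170715351-170718078 on GRCh38, plus strand) was at 53.2 and 47.0 FPKM in the DMSO libraries. In the IWP2 libraries it was at 0.379 and 0.363 FPKM. Both IWP2 libraries lay far below both DMSO libraries, and the 2 libraries of each group were close to each other. The means were 50.1 ± 4.36 FPKM in DMSO and 0.371 ± 0.0116 FPKM in IWP2 (SD, n = 2 each), so that 0.740% of the DMSO level was left, a 135-fold difference on the FPKM scale. On the log2(FPKM + 1) scale, which understates changes of low genes, SP5 fell by 5.22 (SE 0.12, 95% interval -5.53 to -4.91, limma adjusted p = 0.000302 over all genes tested). This was the 9th largest fall among the 15957 genes tested. The call held without any single library, with adjusted p between 0.0224 and 0.0352.

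SP8 fell as well, from a lower level and with a wider spread. SP8 (ENSG00000164651.16, chr7:20782283-20786886, minus strand), known for its part in limb outgrowth and in the patterning of the forebrain, was at 5.80 and 3.37 FPKM in DMSO. With IWP2 it was at 0.0584 and 0.175 FPKM. The groups did not overlap, although the DMSO libraries differed from each other by a larger factor than those of SP5. The means were 4.58 ± 1.72 FPKM and 0.117 ± 0.0827 FPKM (SD, n = 2 each), and 2.55% of the DMSO level was left. The fall was 2.29 on the log2(FPKM + 1) scale (SE 0.26, 95% interval -2.95 to -1.63, limma adjusted p = 0.00774), the 147th largest of all genes tested. The call was lost without IWP2 replicate 1 (adjusted p = 0.117), without IWP2 replicate 2 (adjusted p = 0.112) and without the filter on low values (adjusted p = 0.0747), while the difference stayed between -2.61 and -1.97 without any single library. With a pseudocount of 0.1 in place of 1, on the log2(FPKM + 0.1) scale, SP8 fell by 4.44 and SP5 fell by 6.73.

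Both IWP2 levels rest on few fragments. FPKM values of long genes with a single transcript clustered at whole multiples of a smallest step, and, if that step is 1 fragment, the libraries held 17970000 to 22150000 fragments. Of the values expected at 1 to 4 steps, 83.9% to 85.1% lay within 0.15 of a whole number. These include the values from which the step was taken, so the share is not a separate check of it. On that scale SP5 corresponded to about 2186 and 1719 fragments in DMSO and to about 17 and 14 in IWP2. SP8 corresponded to about 409 and 211 fragments in DMSO and to about 5 (4.5 before rounding) and 12 in IWP2. The exact 95% Poisson intervals for the IWP2 libraries, which cover counting error only, were 9.9 to 27.2 and 7.7 to 23.5 fragments for SP5 and 1.6 to 11.7 and 6.2 to 21.0 for SP8. The intervals of the IWP2 libraries overlapped for each gene.

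**Figure D2:**
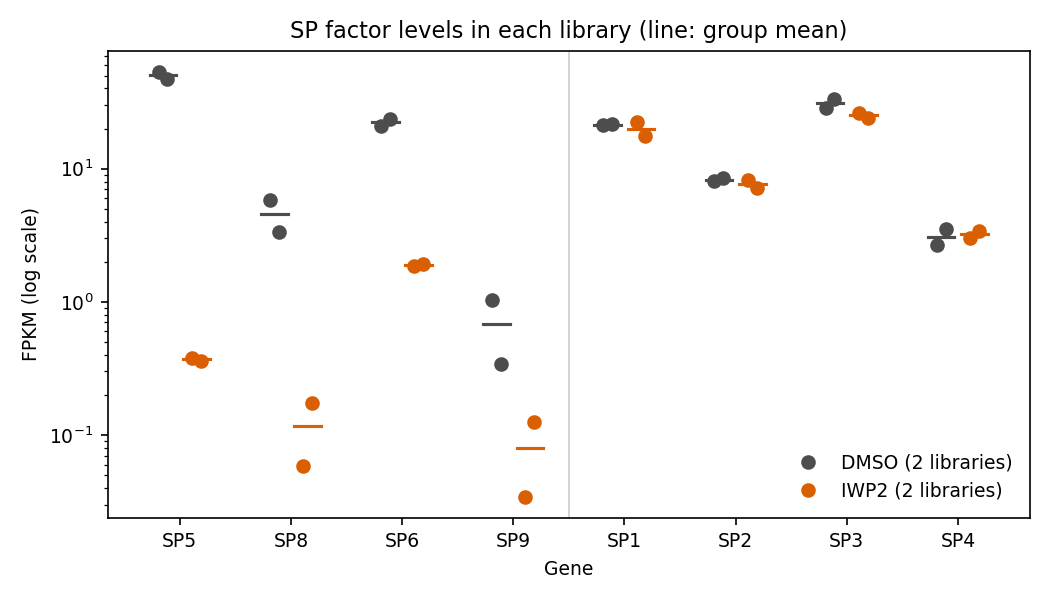
FPKM (log scale) of 8 SP genes in the 2 DMSO (grey) and 2 IWP2 (orange) libraries, each point a library and each line a group mean. SP7, at 0 in an IWP2 library, is not drawn. SP5, SP8, SP6 and SP9 separate by group, SP3 separates by a small margin, and SP1, SP2 and SP4 overlap.

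None of the 4 broadly expressed members passed the test. SP1 (ENSG00000185591.9, chr12:53380176-53416446, plus strand), the founding GC-box activator, was at 21.1 and 21.6 FPKM in DMSO and at 22.2 and 17.5 FPKM with IWP2. The groups overlapped, and the difference was -0.11 on the log2 scale (SE 0.14, adjusted p = 0.646). The 95% interval of this log2(FPKM + 1) difference ran from -0.46 to 0.24. SP2 (ENSG00000167182.14, chr17:47896150-47928957, plus strand) was at 8.02 and 8.44 FPKM in DMSO and at 8.15 and 7.18 FPKM with IWP2. Its groups also overlapped (log2 difference -0.093, SE 0.12, adjusted p = 0.665, interval -0.40 to 0.21).

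SP3 (ENSG00000172845.14, chr2:173906459-173965702, minus strand), which binds the same elements as SP1 and can activate or repress, was at 28.6 and 33.3 FPKM in DMSO and at 26.3 and 24.0 FPKM with IWP2. Here both IWP2 libraries lay below both DMSO libraries, as they did in 31.0% of all genes tested. The log2 difference was -0.29 (SE 0.11, adjusted p = 0.178, interval -0.57 to 0.0034). SP4 (ENSG00000105866.13, chr7:21428034-21514822, plus strand), best known from neurons, was at 2.65 and 3.50 FPKM in DMSO and at 2.99 and 3.41 FPKM with IWP2. Its groups overlapped (log2 difference 0.051, SE 0.17, adjusted p = 0.880, interval -0.38 to 0.48). By limma, 0 of the 4 genes SP1 to SP4 passed the adjusted threshold and 0 passed 0.05 unadjusted. Over all genes tested, 4586 of 15957 passed 0.05 unadjusted. Of the 4, SP3 came nearest to that threshold. These intervals do not show that the 4 genes were equal in both groups.

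The order of the levels changed accordingly. In DMSO libraries SP5 (50.1 FPKM) stood above SP3 (30.9), SP1 (21.4), SP2 (8.23), SP8 (4.58) and SP4 (3.08), in mean FPKM. Only the neighbours SP8 and SP4 overlapped in their ranges there. With IWP2 the order of mean FPKM was SP3 (25.2), SP1 (19.8), SP2 (7.66), SP4 (3.20), SP5 (0.371) and SP8 (0.117), with no overlap between neighbours.

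The 3 remaining SP genes were set beside them. SP6 (ENSG00000189120.4), known from tooth and skin development, was at 21.1 and 23.7 FPKM in DMSO and at 1.86 and 1.93 FPKM with IWP2. The groups were far apart, and SP6 fell by 3.01 on the log2 scale (SE 0.12, limma adjusted p = 0.000603), the 83rd largest fall, and was called without any single library. On the FPKM scale 8.47% of the DMSO level of SP6 was left, more than the 2.55% of SP8. With a pseudocount of 0.1 the order of these genes turned, with differences of -3.49 for SP6 and -4.44 for SP8. SP7, the bone factor osterix, and SP9, of limb and forebrain, lay under the filter and were not tested. SP7 was at 0.385 and 0.580 FPKM in DMSO, at 0.0146 FPKM in IWP2 replicate 1 and at 0 in IWP2 replicate 2. SP9 was at 1.03 and 0.341 FPKM in DMSO and at 0.0345 and 0.126 FPKM with IWP2. In both, all IWP2 values lay below all DMSO values, at levels of 53 fragments or fewer on the scale above. Among the genes that passed the filter, 31.0% showed the same order.

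Added up, most of the lower SP total with IWP2 came from SP5 to SP9. SP1 to SP9 summed to 141.9 FPKM in each of the 2 DMSO libraries and to 62.0 and 54.7 FPKM in the IWP2 libraries. SP1 to SP4 alone summed to 60.4 and 66.8 FPKM in DMSO and to 59.7 and 52.1 FPKM with IWP2. SP5 to SP9 summed to 81.5 and 75.0 FPKM in DMSO and to 2.35 and 2.59 FPKM with IWP2. SP5 made up 35.3% ± 3.08 of the sum in DMSO and 0.637% ± 0.0366 with IWP2 (SD, n = 2 each). SP8 made up 3.23% ± 1.21 and 0.207% ± 0.160. The share of SP3 went from 21.8% ± 2.35 to 43.2% ± 1.10 and that of SP1 from 15.1% ± 0.240 to 33.9% ± 2.76, without a called change in the level of either. These shares are a description and were not tested.

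**Figure D3:**
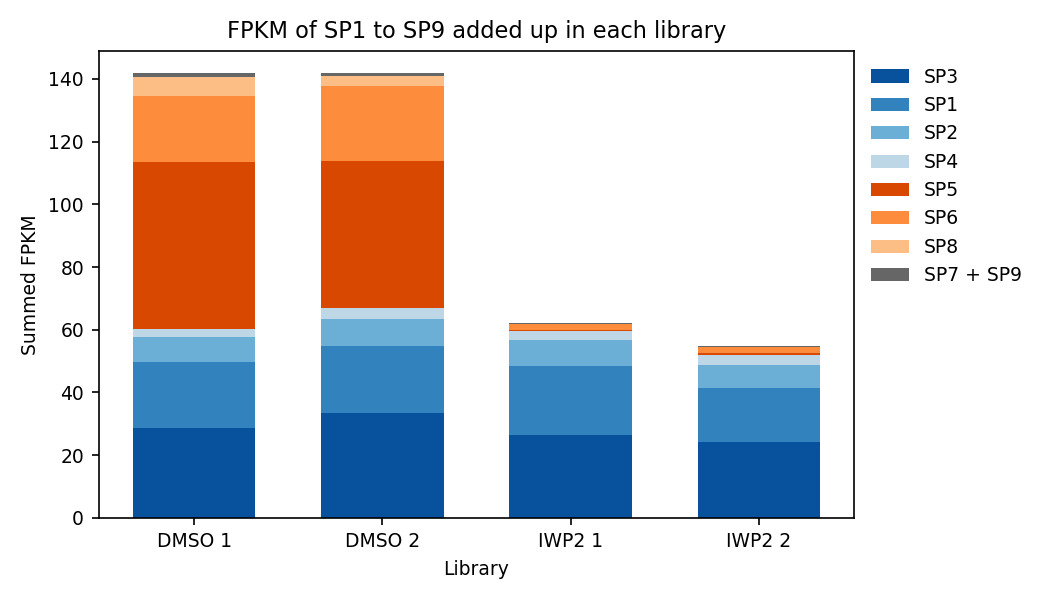
Summed FPKM of SP1 to SP9 in each library, with SP1 to SP4 in blue, SP5, SP6 and SP8 in orange and SP7 with SP9 in grey. The blue part is 60.4 and 66.8 FPKM in DMSO and 59.7 and 52.1 FPKM in IWP2 libraries, and the orange and grey part drops from 81.5 and 75.0 FPKM to 2.35 and 2.59 FPKM.

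Some SP genes lie next to each other in the genome. SP8 and SP4 are neighbours on chromosome 7, 641.1 kb apart with no protein-coding gene between them in GENCODE 29. SP6 and SP2 are 40.3 kb apart on chromosome 17, and SP7 and SP1 are 34.9 kb apart on chromosome 12, again with none between. SP9 lies 369.2 kb from SP3 on chromosome 2 with 1 protein-coding gene between them, and SP5 lies 3188.4 kb from SP3 with 18. In the pairs SP8 and SP4 and SP6 and SP2, the first gene fell and the second was not called. SP7 and SP9 were not tested.

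The genes around SP5 were examined within 500 kb on each side, a window chosen after the values were seen. Of 7 tested genes there, 3 were lower with IWP2 by limma, next to 7.39% of all genes tested. LINC01124, a long noncoding RNA on the opposite strand whose nearest annotated base lies 784 bases before SP5, was at 1.22 and 1.32 FPKM in DMSO and was listed at 0 in both IWP2 libraries (adjusted p = 0.0172). GAD1, which makes the neurotransmitter GABA, lies 95.1 kb away and was at 9.54 and 10.7 FPKM in DMSO and at 0.657 and 1.06 FPKM with IWP2 (log2 difference -2.59, adjusted p = 0.00188). ERICH2, between SP5 and GAD1, was at 1.52 and 1.66 FPKM in DMSO and was listed at 0 with IWP2 (adjusted p = 0.0110). LINC01124 and ERICH2 reached the filter on low values through the DMSO libraries alone, so that a fall was the only call open to them. GORASP2 and TLK1, farther off, did not pass the test (adjusted p = 0.0699 and 0.935). EIF2S2P4 and AC007405.3, nearer to SP5 than ERICH2 at 33.7 and 53.0 kb, did not pass it either (limma adjusted p = 0.304 and 0.0733). Around SP8 only 3 genes could be tested, of which the integrin gene ITGB8 was lower (log2 difference -0.98, adjusted p = 0.0245). None of these neighbours kept its call without each IWP2 library in turn: for GAD1 the adjusted p was 0.0507 without IWP2 replicate 1 and 0.0504 without IWP2 replicate 2, and LINC01124 and ITGB8 also lost theirs without either DMSO library and ERICH2 without DMSO replicate 2 (adjusted p up to 0.120, 0.168 and 0.102). Around SP6, 0 of 17 tested genes, SP2 among them, was called by limma. Of these 17, 5 had an unadjusted p under 0.05, next to 4586 of all 15957 genes tested. No annotated gene overlapped SP5, SP8, SP1 or SP3. SP2-AS1, which overlaps SP2 on the opposite strand, was at 0.316 to 0.476 FPKM in the 4 libraries, and whether strand was used in counting is not given in the sources used here.

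**Figure D4:**
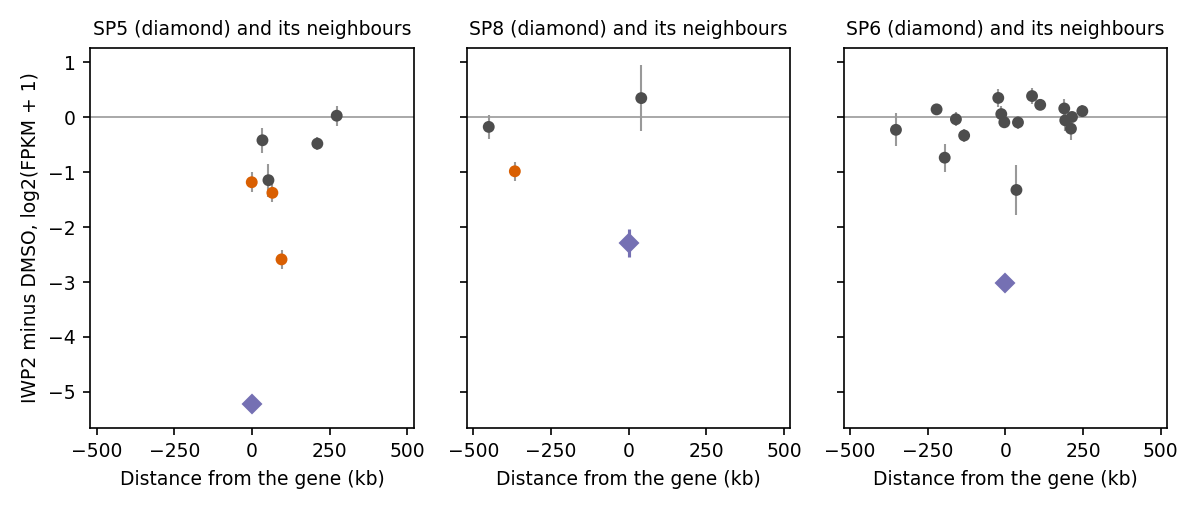
Difference between IWP2 and DMSO on the log2(FPKM + 1) scale for SP5, SP8 and SP6 (diamonds) and for the tested genes within 500 kb, against their distance in kb, with bars for the SE and orange for an adjusted p under 0.05. Around SP5, 3 of 7 genes are orange, and around SP6 none of 17 is, where 13.3% of all genes tested passed that threshold.

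Known Wnt feedback and target genes gave the setting for SP5 and SP8. Of 20 such genes, 12 were lower with IWP2, 1 was higher and 7 did not pass the test, with a median difference of -1.11 on the log2 scale. Over all genes tested, 7.39% were lower and 5.86% were higher. NKD1, an inhibitor of the pathway, was at 38.2 and 52.3 FPKM in DMSO and at 1.70 and 1.56 FPKM with IWP2 (log2 difference -4.12, adjusted p = 0.000635). LEF1, which with β-catenin binds the core marked above, was at 9.34 and 9.70 FPKM in DMSO and at 0.144 and 0.239 FPKM with IWP2 (-3.14, adjusted p = 0.000770). Several genes called lower, LEF1 among them, reached the filter on low values through the DMSO libraries alone. For these a fall was the only call open. AXIN2, the feedback scaffold often read as a reporter of the pathway, went from 14.2 and 15.2 FPKM to 6.45 and 5.58 FPKM (-1.16, adjusted p = 0.00630), a smaller difference on this scale than that of SP5 or SP8. BAMBI, a decoy receptor for BMP and TGF-β ligands, was the gene called higher (320.0 and 284.3 FPKM in DMSO, 394.5 and 438.8 FPKM with IWP2, adjusted p = 0.0464). The cell cycle gene CCND1 (53.7 FPKM on average over the 4 libraries) and MYC (28.9 FPKM) were not called, with adjusted p of 0.708 and 0.412. NKD1 and LEF1 kept their calls without any single library, while AXIN2 and BAMBI lost theirs without any of the 4 (adjusted p up to 0.0975 and 0.247). Without IWP2 replicate 1 or without IWP2 replicate 2, the number called lower was 4.

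Genes of the primitive streak and nascent mesoderm, where SP5 is known to be expressed, were lower in 15 of 17 tested cases. The other 2 did not pass the test, and the median log2 difference was -3.41. Over all genes tested, 7.39% were called lower. Several genes of this list also reached the filter on low values through the DMSO libraries alone, so that only a fall could be called. All 7 mesoderm markers counted above are also on this list, so the 2 counts are not separate. APLNR, a receptor of early mesoderm, went from 379.7 and 512.0 FPKM in DMSO to 2.97 and 2.39 FPKM with IWP2 (log2 difference -6.91, adjusted p = 0.000302). MIXL1 and EOMES, regulators of mesendoderm, differed by -3.60 and -3.41 (adjusted p = 0.000400 and 0.000302). HAND1 differed by -1.32 (adjusted p = 0.0125). T, or Brachyury, went from 21.6 and 18.5 FPKM to 9.40 and 10.4 FPKM (-0.94, adjusted p = 0.0114), so that it kept a larger part of its level than SP5 did. Without any single library APLNR, MIXL1 and EOMES kept their calls. T lost its call without any of the 4 (adjusted p up to 0.135), and HAND1 lost its call without any library other than DMSO replicate 1 (up to 0.143). Without IWP2 replicate 1 or without IWP2 replicate 2, 8 genes of this list were called lower.

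As a counterpart to SP1 to SP4, 18 other factors that bind the promoters of broadly expressed genes were counted. By limma 0 of 18 was called in either direction. Of the 18, 1 had an unadjusted p under 0.05, next to 4586 of all 15957 genes tested. The median log2 difference was -0.044, next to -0.10 for SP1 to SP4. The 4 most abundant were MAZ (180.3 FPKM on average), USF2 (75.7), E2F4 (52.9) and USF1 (38.3), with log2 differences of -0.049, 0.046, -0.050 and -0.13.

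**Figure D5:**
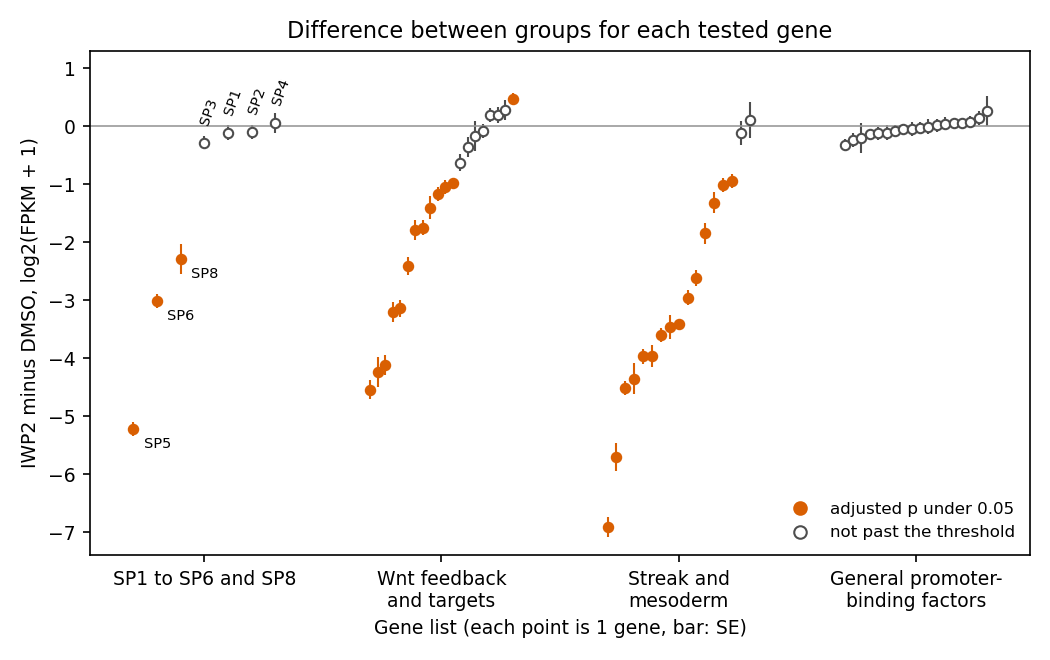
Difference between IWP2 and DMSO on the log2(FPKM + 1) scale for each tested gene, with its SE, for the SP genes and the 3 gene lists; filled points passed an adjusted p of 0.05. SP6 and SP8 (-3.01 and -2.29) lie within the ranges of the Wnt and streak lists, SP5 (-5.22) lies below every tested gene of the Wnt list and within the range of the streak list, and SP1 to SP4 lie within the range of the 18 promoter-binding factors.

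The genes with the profile nearest to SP5 over the 4 libraries were GATA6, LZTS1, HOXB6, GATA6-AS1 and AL139099.5. Likeness was the root mean square difference between centred log2(FPKM + 1) values, and it was 0.21 to 0.27 for these 5 genes. GATA6, a factor of mesoderm and endoderm, was at 118.6 and 134.5 FPKM in DMSO and at 3.52 and 3.01 FPKM with IWP2. GATA6-AS1 is by its name antisense to GATA6, and whether the pair shares reads was not tested. HOXB6 was at 38.9 and 51.7 FPKM in DMSO and at 0.116 and 0.263 FPKM with IWP2. In all 5 genes DMSO replicate 2 was above DMSO replicate 1, and in SP5 it was below.

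The profiles nearest to SP8 were those of FOXA2, TNS4, GJA4, LEFTY1 and STRA6, at a root mean square difference of 0.061 to 0.11. FOXA2, a factor of endoderm and of the anterior streak, was at 6.28 and 3.49 FPKM in DMSO and at 0.222 and 0.297 FPKM with IWP2. LEFTY1, a Nodal inhibitor, was at 97.0 and 57.1 FPKM in DMSO and at 13.6 and 13.3 FPKM with IWP2. In all 5, as in SP8, DMSO replicate 1 was above DMSO replicate 2. These are descriptions over 4 libraries that differ mainly by group. The log2(FPKM + 1) scale understates changes of low genes, so a near profile is not a like fold change. On the FPKM scale the means differed 18.8-fold for FOXA2 and 39.2-fold for SP8.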

How the data were processed

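TruSeq RNA libraries of H1 cells were deposited as a single table of FPKM per gene, made by the authors, with a column for each of 2 DMSO and 2 IWP2 libraries. The column headers mark the libraries as minus or plus IWP2, and the minus columns were taken as the DMSO group, with the numbers of the headers as names. The submitters' processing notes name BWA, Bowtie and RSEM, with no versions or roles, and hg19. However, the row coordinates are GRCh38: after 1 was added to each start, 97.3% of the rows with a GENCODE 29 gene had its coordinates, and positions are given on that build. FPKM was not rescaled. Where a symbol repeated, its row with the highest mean was kept (2113 of 58365 rows shared a symbol, none of them an SP gene). Genes with a mean of at least 0.5 FPKM were fitted with limma 3.58.1 (R 4.3.3) on log2(FPKM + 1), with the intensity trend and no block, two-sided, with Benjamini-Hochberg adjustment over all 15957 genes and a threshold of 0.05. The script was tested on simulated data. Fragment numbers were inferred from FPKM steps and the longest GENCODE 29 transcript, and no count model was used. Promoters came from RefSeq (GRCh38.p14). The members, lists and tests were chosen with earlier results of these data known. Beside the SP genes, genes were named by a rule: the 4 most abundant tested genes of each list, AXIN2, LEF1 and T, and the 5 nearest profiles. Genes around SP5 and SP8, marker genes with a value or call of their own (SOX2, POU5F1, TDGF1, CER1, SOX17, NES, GATA1, HES5, TEK, LUM, THY1) and SP2-AS1 were named after their values were seen. Other pseudocounts, filters and scalings, a replicate block, leaving out each library, summed rows and a fit without the trend were tried.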

Additional observations from a re-analysis of the deposited data

How the results depend on the processing

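Over 8 alternatives that kept all libraries, SP5 stayed called (log2 difference -6.73 to -5.17, adjusted p 0.000181 to 0.0218), and SP1 to SP4 stayed uncalled. SP8 stayed called in 7 of 8, the exception being no filter on low values (-2.29, adjusted p = 0.0747), which adds genes to the test. Without that filter 266 genes were called lower and 118 higher. Leaving out 1 library at a time gave 88 to 431 genes called lower and 19 to 300 called higher; a lone library of a group was assumed to vary like the other group. SP8 then ranged from -2.61 to -1.97, SP1 from -0.28 to 0.055 and SP4 from -0.099 to 0.20. SP1 changed sign without IWP2 replicate 2 (0.055), and SP4 without DMSO replicate 1 (-0.099) and without IWP2 replicate 2 (-0.021), each far from the threshold. Uncalled genes that changed sign were CCND1 (-0.22 to 0.063 without 1 library), MAZ (-0.19 to 0.091, and 0.0091 with upper quartile scaling), USF2 (-0.012 to 0.10), TLK1 (-0.17 to 0.23) and E2F4 (0.0077 with upper quartile scaling). No filter also ended the calls of AXIN2, HAND1, T and ITGB8 (adjusted p 0.0552 to 0.0949). Without 1 library, Wnt genes called lower numbered 4 to 9 and streak genes called lower 8 to 13, from 12 and 15 with all 4; over the alternatives that kept all libraries they numbered 9 to 13 and 11 to 15. The Wnt gene called higher, BAMBI, was lost without any single library, without the filter, without the trend and with the replicate block (0 genes each); for the last 2 the cause was not tested.

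The labels number the libraries 1 and 2 in both groups but do not say that a number marks a shared culture or day. Deviations of same-numbered libraries from their group means correlated weakly over genes (r = 0.138). With the replicate block SP5 differed by -5.22 (adjusted p = 0.000731) and SP8 by -2.29 (adjusted p = 0.0113), and 1073 genes were called lower and 849 higher. GORASP2 passed the threshold with the block (adjusted p = 0.0466).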
